A study of Mus musculus with 20 samples.

Results

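The IGF binding proteins, the pappalysin proteases that cut them and the stanniocalcins that block those proteases were followed in mouse plantaris tendon, a small tendon of the hind limb. The set holds 10 of the 24885 genes in the count table, found by gene symbol: Igfbp2, Igfbp3, Igfbp4, Igfbp5, Igfbp6, Igfbp7, Pappa, Pappa2, Stc1 and Stc2. All 10 passed the filter on low counts, as did 18918 genes in all. There were 5 groups of 4 libraries. WT day 0 tendons came from ScxCreERT2-/- IGF1Rflox/flox mice given no tamoxifen and no growth stimulus. WT day 7 and WT day 14 tendons came from mice of that genotype, with tamoxifen and with 7 or 14 days of growth stimulus. KO day 7 and KO day 14 tendons came from ScxCreERT2+/+ IGF1Rflox/flox mice with tamoxifen and the same lengths of stimulus. The floxed Igf1r alleles are thus common to every group, and tamoxifen, stimulus and time differ together between day 0 and the later groups and cannot be told apart. The recombinase CreERT2 is driven from Scx, a gene of tenocytes, so the model targets the cells in which Scx is active and not the whole tissue. No library of the ScxCreERT2+/+ genotype without stimulus was analysed here, and the sources used here give no ages. Nothing in the labels says whether the 4 libraries of a group came from separate animals, so the p-values measure the spread between libraries only.

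Insulin-like growth factors circulate and sit in the matrix bound to IGF binding proteins, which hold the ligand away from its receptor and set how long it lasts. The pappalysins are secreted metalloproteinases that cut some of these carriers and so free the ligand: Pappa cuts the products of Igfbp4, Igfbp5 and Igfbp2, and Pappa2 cuts those of Igfbp3 and Igfbp5. The stanniocalcins Stc1 and Stc2 are secreted glycoproteins that bind the pappalysins and inhibit them. In tendon, Igf1 is made by tenocytes and other stromal cells and drives matrix synthesis and growth under load.

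The stretches just before the starts of 4 binding protein genes are shown because these 4 changed in the WT libraries at both days, Igfbp2 and Igfbp4 upwards and Igfbp5 and Igfbp6 downwards. Each run is the 250 bases before the RefSeq start in GRCm38.p6, written 5′ to 3′ along the gene's strand, with capitals on any match, on either strand, to the letters searched for a TATA box, an AP-1 site, a forkhead site or a TEAD site.
Igfbp2 (chr1:72824230-72824479, plus strand): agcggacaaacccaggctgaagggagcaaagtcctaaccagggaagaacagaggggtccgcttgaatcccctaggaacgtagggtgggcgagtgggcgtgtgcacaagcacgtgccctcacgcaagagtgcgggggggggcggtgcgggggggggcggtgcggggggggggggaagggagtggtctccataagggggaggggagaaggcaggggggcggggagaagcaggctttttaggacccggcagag
Igfbp4 (chr11:99040994-99041243, plus strand): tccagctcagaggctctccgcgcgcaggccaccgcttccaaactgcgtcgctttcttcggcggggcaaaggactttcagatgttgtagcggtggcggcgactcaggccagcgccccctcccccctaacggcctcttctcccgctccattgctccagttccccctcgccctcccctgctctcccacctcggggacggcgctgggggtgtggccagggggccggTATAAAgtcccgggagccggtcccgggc
Igfbp5 (chr1:72874866-72875115, minus strand): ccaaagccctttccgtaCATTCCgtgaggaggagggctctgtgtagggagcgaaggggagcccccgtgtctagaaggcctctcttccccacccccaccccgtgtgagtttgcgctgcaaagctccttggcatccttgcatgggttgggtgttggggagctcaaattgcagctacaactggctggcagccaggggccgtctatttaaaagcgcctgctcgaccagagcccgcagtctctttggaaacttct
Igfbp6 (chr15:102143936-102144185, plus strand): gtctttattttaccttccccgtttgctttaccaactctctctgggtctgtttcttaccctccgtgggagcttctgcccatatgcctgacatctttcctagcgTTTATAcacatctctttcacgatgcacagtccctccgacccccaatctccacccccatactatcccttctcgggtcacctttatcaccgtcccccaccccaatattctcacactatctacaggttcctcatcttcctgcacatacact
The TATA box letters were TATAAA. The Igfbp4 run holds them at -28 from the start, and the Igfbp6 run holds them on the opposite strand at -148. They stood anywhere, on either strand, in 12.4% of 32851 promoter stretches of this length. The TEAD letters were GGAATG. The Igfbp5 run holds them on the opposite strand at -233. They stood anywhere, on either strand, in 12.6% of all stretches. The Igfbp2 run shown holds none of the 4 letter strings that were capitalised. RefSeq gives a second start for Igfbp2 inside the gene, and the stretch before it (chr1:72825137-72825386), not printed, holds AP-1 letters at -39. The forkhead letters, GTAAACA, stood in 3.17% of all stretches. For AP-1, the letters TGANTCA stood in 6.75%. The E-box letters CANNTG, not capitalised, occurred in each of the 4 runs, and in 66.2% of all stretches. GC content was 67.2% for Igfbp2, 69.2% for Igfbp4, 58.8% for Igfbp5 and 49.6% for Igfbp6, against a median of 52.4% over all stretches. RefSeq stretches were found for 8 of the 10 genes, and Pappa and Stc1 had no entry. The positions above count from RefSeq starts and hold for those only. For Igfbp2, Igfbp5 and Igfbp6 these starts differ from the gene bounds printed below, and for Igfbp4 they are the same.

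Igfbp2 (ENSMUSG00000039323, chromosome 1, 72824503 to 72852474, plus strand) and Igfbp5 (ENSMUSG00000026185, chromosome 1, 72857932 to 72874884, minus strand) are neighbours in GRCm38. Their 3′ ends face each other across 5457 bases, with 0 annotated genes between them. The other members lie elsewhere: Igfbp3 on chromosome 11 (7206086 to 7213923), 3539 bases from Igfbp1 (not analysed here) with 0 annotated genes between, Igfbp4 also on chromosome 11 (99041244 to 99054392), Igfbp6 on chromosome 15 (102144362 to 102149511) and Igfbp7 on chromosome 5 (77349240 to 77408041). Pappa lies on chromosome 4 (65124174 to 65357509), Pappa2 on chromosome 1 (158711727 to 158980490), Stc1 on chromosome 14 (69029238 to 69041804) and Stc2 on chromosome 11 (31357307 to 31370074). Igfbp7 overlaps Polr2b on the other strand, Stc1 overlaps the antisense gene Gm41192, and Pappa2 overlaps a non-coding gene on its own strand. These overlaps are of whole gene spans, and overlap of exons was not examined. Among the overlapping genes only Polr2b is in the count table. The sources used here do not say whether counting used strand. Any reads shared in such overlaps could therefore not be assigned, and the counts of these 3 genes are uncertain to that extent.

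The libraries held 32254411 to 63522834 counts each. The targeted gene Igf1r stood at 62.7 ± 6.13 CPM (counts scaled to the depth of the library; mean ± SD, n = 4) at WT day 0, 49.1 ± 2.17 at WT day 7, 51.3 ± 2.81 at KO day 7, 45.3 ± 3.63 at WT day 14 and 53.1 ± 5.0 at KO day 14. Between genotypes it differed by 0.06 on the log2 scale at day 7 (edgeR adjusted p = 0.646) and by 0.23 at day 14 (edgeR adjusted p = 0.162). The count is for the whole gene, so loss of a floxed exon need not show in it, and the label KO is used below as the label only. The sum of 8 tenocyte markers was at least 23278 CPM in every library. Its median was 25293 at WT day 0, 28555 at WT day 7, 51218 at KO day 7, 43614 at WT day 14 and 69549 at KO day 14. Single markers moved apart within that sum. From WT day 0 to WT day 7, Col1a1 rose by 1.31 on the log2 scale. Comp fell by 2.22, Fmod by 1.94 and Mkx by 1.04 in that comparison, and 4 markers were not called. Of all genes, 32.3% were called higher there and 31.8% lower. The summed CPM of 10 skeletal muscle markers had a median of 46542 at WT day 0, 1195 at WT day 7, 6778 at KO day 7, 8085 at WT day 14 and 11841 at KO day 14. Summed macrophage markers had medians of 1847, 5398, 4093, 3196 and 2908 CPM in the same order, and summed adipocyte markers 721, 170, 108, 168 and 138 CPM. The library KO day 7 replicate 2 held 683 CPM of keratinocyte markers, against at most 112 CPM in any other. In bulk tissue, fewer cells of a type and less RNA per cell cannot be told apart.

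To compare genes, CPM was divided by the kilobases of all annotated exons of a gene. The transcripts in use were not determined, so orders, shares and ratios between genes depend on those lengths. By this measure, the order of the 10 genes at WT day 0 was led by Igfbp6 at 919 ± 136 CPM per kb (SD, n = 4). Igfbp7 followed at 603 ± 131, Igfbp5 at 444 ± 35.6, Igfbp4 at 135 ± 12.1 and Igfbp3 at 55.0 ± 9.94 CPM per kb. The proteases and their inhibitors were far lower: Pappa2 at 5.05 ± 0.53, Stc2 at 0.90 ± 0.079, Pappa at 0.26 ± 0.054 and Stc1 at 0.23 ± 0.052 CPM per kb. Igfbp2, at 0.43 ± 0.088 CPM per kb, was the lowest binding protein. Neighbours in this order did not overlap between libraries except Pappa and Stc1.
At WT day 7 Igfbp7 led with 459 ± 27.6 CPM per kb, and the libraries of Igfbp4 (202 ± 20.1), Igfbp6 (161 ± 27.3) and Igfbp5 (145 ± 24.9) overlapped with their neighbours in the order. Igfbp7 also led at KO day 7 (548 ± 44.1), WT day 14 (703 ± 83.5) and KO day 14 (753 ± 105 CPM per kb). Its libraries stood clear of the next gene, except at KO day 14, where they overlapped with those of Igfbp6. At day 14 the lowest of the 10 genes was Pappa2 under both labels, at 0.55 ± 0.48 CPM per kb in WT and 0.81 ± 0.59 in KO, and its libraries overlapped with those of Stc1.

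**Figure D1:**
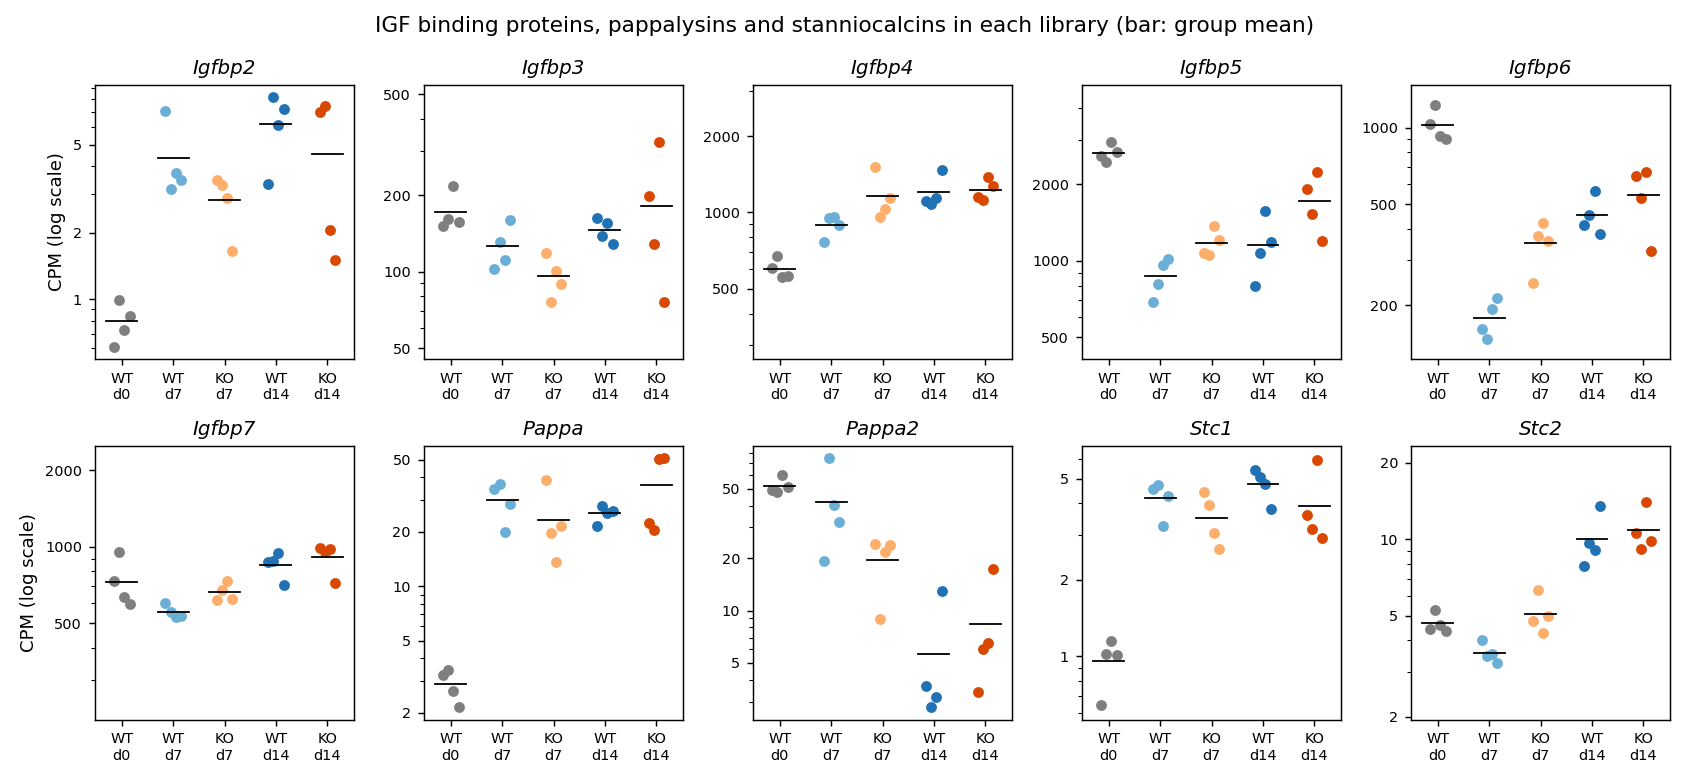
CPM on log axes for the 10 genes, with 1 point per library (4 per group, jittered sideways in replicate order) and a bar at the group mean. All 4 day 0 libraries lie below every later library for Igfbp2, Pappa and Stc1, and above every later library for Igfbp5 and Igfbp6.

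As shares of the 6 binding proteins' summed CPM per kb, Igfbp6 made up 42.5% ± 1.55 (SD, n = 4) at WT day 0, between 40.6% and 44.2% in single libraries. Its share was 15.9% ± 2.08 at WT day 7, 23.1% ± 4.17 at KO day 7, 24.9% ± 1.80 at WT day 14 and 25.8% ± 3.33 at KO day 14. No later library reached the lowest day 0 share. The share of Igfbp7 was 27.7% ± 2.73 at WT day 0 and 45.6% ± 4.41 at WT day 7, and that of Igfbp4 was 6.30% ± 0.22 and 20.04% ± 1.85. Igfbp5 went from 20.9% ± 3.55 to 14.3% ± 1.91 of the sum, while Igfbp2 never made up more than 0.39% in any library.
The sum itself was 2157 ± 248.9 CPM per kb at WT day 0 and 1010 ± 42.0 at WT day 7. It stood at 1353 ± 86.0 at KO day 7, 1625 ± 161 at WT day 14 and 1866 ± 346 at KO day 14. The 4 libraries of WT day 7 lay below every other library in this sum, and the highest library of KO day 14, at 2199, exceeded 3 of the 4 day 0 libraries. These shares and sums are descriptions and were not tested.

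**Figure D2:**
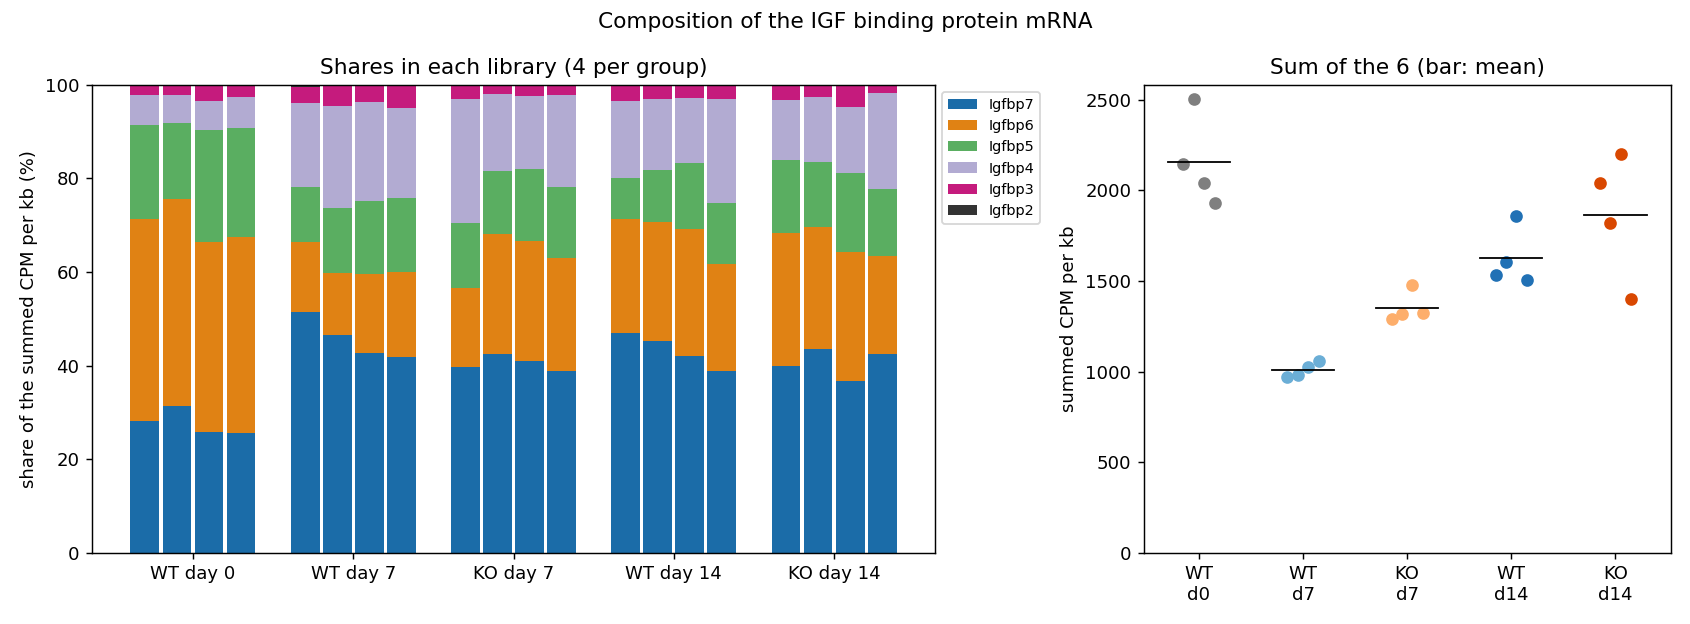
Left, stacked shares of the 6 binding protein genes in their summed CPM per kb of exon, 1 bar per library. Right, the sum in each library with a bar at the group mean: Igfbp6 holds the largest share at day 0 (42.5%) and Igfbp7 in the other groups, and the sum is lowest at WT day 7 (1010 CPM per kb).

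Over the first 7 days of stimulus in the WT libraries, 8 of the 10 genes changed (edgeR adjusted p under 0.05), 4 upwards and 4 downwards. Across all genes tested, 64.1% were called in this comparison, 32.3% higher and 31.8% lower. The libraries of 7 members did not overlap between the groups, against 60.6% of all genes. The median log2 change of the 10 members was -0.35, and that of all genes 0.02. By day 14 against day 0, 5 members had risen and 3 had fallen, again 8 in all, where 54.3% of all genes were called, 28% higher and 26.2% lower. In that comparison the libraries of 8 members did not overlap, against 46.1% of all genes, and the median change was 0.61 for the members and 0.02 for all genes. From WT day 7 to WT day 14, 4 members rose and 1 fell, with 30.4% of all genes called, 16% higher and 14.3% lower. In the same comparison 5 members had libraries that did not overlap, against 25.6% of all genes.

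Igfbp6 encodes a binding protein with a preference for IGF-II. Its CPM at WT day 0 was 1031, 1232, 923 and 901 in replicates 1 to 4, and at WT day 7 it was 161, 147, 193 and 214. At WT day 14 the libraries held 415, 451, 561 and 382 CPM. Every day 0 library lay far above every day 7 library, and the day 14 libraries lay between them without touching either. Igfbp6 fell by 2.52 ± 0.21 (SE) on the log2 scale over 7 days, to a level 5.72-fold lower (edgeR adjusted p = 7.66e-09). It then rose by 1.34 ± 0.21 from day 7 to day 14 (edgeR adjusted p = 0.000104), and was 2.26-fold below day 0 at day 14 (edgeR adjusted p = 8.38e-05). With a muscle score, the mean log2 CPM of the 10 skeletal muscle markers in a library, as a covariate, the change over 7 days was -3.27. Summed muscle markers did not overlap between WT day 0 (22805 to 59024 CPM), WT day 7 (180 to 1443) and WT day 14 (2479 to 20333). Where the sums of compared groups do not overlap, values with this score rest on extrapolation and cannot tell group and muscle content apart.
Igfbp5, whose product binds matrix as well as IGF, stood at 2587, 2441, 2949 and 2692 CPM in the day 0 libraries. The WT day 7 libraries held 687, 811, 965 and 1015 CPM, and those of WT day 14 held 795, 1076, 1567 and 1183. All 8 later libraries were below the lowest at day 0, while days 7 and 14 overlapped. Igfbp5 fell by 1.62 ± 0.20 over 7 days (edgeR adjusted p = 6.52e-07) and by 1.21 ± 0.19 over 14 days (edgeR adjusted p = 3.29e-05). Its difference of 0.41 ± 0.19 between days 7 and 14 did not pass (edgeR adjusted p = 0.114), but did without WT day 14 replicate 1 (0.55, edgeR adjusted p = 0.0294) and with the muscle score (0.78, edgeR adjusted p = 0.0372). With that score the change over 7 days was -2.26. Over the same 7 days, 31.8% of all genes were called lower. Of 6 paratenon and progenitor fibroblast markers 3 fell and 1 rose. Their sums were 1934 to 2133 CPM at WT day 0 and 1116 to 1664 at WT day 7. Of 8 endothelial markers 5 fell, as did all 5 Schwann and nerve markers. Of 7 pericyte and smooth muscle markers 4 fell and 1 rose. The part of these lists in the falls of Igfbp6 and Igfbp5 was not tested.

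Igfbp4, whose product inhibits IGF action until Pappa cuts it, was the abundant binding protein that went the other way. Its CPM was 602, 672, 558 and 561 at WT day 0, 767, 954, 958 and 895 at WT day 7, and 1115, 1078, 1140 and 1471 at WT day 14. The 3 sets of libraries were separate and rose with time. Igfbp4 rose by 0.58 ± 0.14 on the log2 scale over 7 days (edgeR adjusted p = 0.000949) and by 1.01 ± 0.14 over 14 days (edgeR adjusted p = 4.67e-06). The step of 0.43 ± 0.14 between days 7 and 14 (edgeR adjusted p = 0.0219) lost its call without WT day 14 replicate 4, the highest library (0.31, edgeR adjusted p = 0.0822), and without WT day 7 replicate 1, the lowest of its group (0.36, edgeR adjusted p = 0.0617). With the muscle score as a covariate, the change over 7 days was 0.47 (edgeR adjusted p = 0.199) and the step between days 7 and 14 was 0.50 (edgeR adjusted p = 0.0965), so neither was called.
Igfbp2 had few counts, from 20 to 61 per library at WT day 0. Its CPM there was 0.61, 0.99, 0.73 and 0.84, against 7.06, 3.15, 3.73 and 3.46 at WT day 7 and 3.31, 8.17, 6.13 and 7.28 at WT day 14. All 8 later WT libraries lay clear above the highest at day 0, and days 7 and 14 overlapped. It rose by 2.44 ± 0.47 over 7 days (edgeR adjusted p = 0.000199) and by 2.95 ± 0.48 over 14 days (edgeR adjusted p = 4.89e-05).

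Igfbp7, a matrix-bound relative that binds IGF only weakly, had its lowest WT mean at day 7 and its highest at day 14. It stood at 732, 952, 636 and 598 CPM at WT day 0, 603, 552, 529 and 537 at WT day 7, and 870, 880, 944 and 707 at WT day 14. The day 0 libraries were widely spread and overlapped with both later groups, which were themselves separate. Igfbp7 fell by 0.39 ± 0.13 over 7 days (edgeR adjusted p = 0.0155), a call that was lost without WT day 0 replicate 2, the highest library (-0.25, edgeR adjusted p = 0.0738). The same change was -0.78 with the muscle score as a covariate (edgeR adjusted p = 0.0202). It rose by 0.61 ± 0.13 from day 7 to day 14 (edgeR adjusted p = 0.00197). Its difference of 0.22 between day 14 and day 0 did not pass (edgeR adjusted p = 0.172), but did without WT day 0 replicate 2 (0.37, edgeR adjusted p = 0.0137).
Igfbp3, which carries most IGF in blood together with the product of Igfals, gave no call in the 3 WT comparisons. Its CPM was 151, 161, 218 and 158 at WT day 0, 103, 130, 111 and 159 at WT day 7, and 163, 138, 156 and 128 at WT day 14, and all 3 groups overlapped. The log2 difference from day 0 was -0.45 ± 0.30 at day 7 (edgeR adjusted p = 0.199) and -0.23 ± 0.30 at day 14 (edgeR adjusted p = 0.531). Fitted to the libraries of days 0 and 7 alone, the day 7 difference of -0.45 did pass (edgeR adjusted p = 0.0267), and with the muscle score it was -1.41 (edgeR adjusted p = 0.0505).

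By day 14 the 2 pappalysins had moved in opposite directions. Pappa stood at 3.24, 3.46, 2.62 and 2.14 CPM at WT day 0, at 34.4, 36.6, 19.9 and 28.4 at WT day 7, and at 21.6, 27.9, 25.5 and 26.1 at WT day 14. Every later library was far above day 0, and days 7 and 14 overlapped. Pappa rose 10.4-fold over 7 days (3.38 ± 0.36 on the log2 scale, edgeR adjusted p = 3.32e-07) and 8.80-fold over 14 days (3.14 ± 0.36, edgeR adjusted p = 1.35e-06).
Pappa2 stood at 48.8, 48.0, 59.97 and 51.1 CPM at WT day 0, and at 19.2, 74.8, 40.5 and 32.2 at WT day 7. At WT day 14 it was 3.67, 2.78, 3.19 and 12.99. The day 7 libraries spread over almost 4-fold around the day 0 level, while all day 14 libraries lay below both earlier groups. The day 7 difference of -0.32 ± 0.54 did not pass (edgeR adjusted p = 0.625), and with the muscle score it was 1.26 (edgeR adjusted p = 0.368). Pappa2 fell 9.24-fold over 14 days (by 3.21 ± 0.60 on the log2 scale, edgeR adjusted p = 0.00027), and 7.41-fold between days 7 and 14 (edgeR adjusted p = 0.00164). Without WT day 14 replicate 4, the high library of its group, these log2 values were -4.02 (edgeR adjusted p = 3.21e-05) and -3.70 (edgeR adjusted p = 0.000272). The step between days 7 and 14 was -3.96 with the muscle score.
Per kilobase, Pappa2 exceeded Pappa 14.84 to 25.55-fold in the WT day 0 libraries. The ratio of Pappa to Pappa2 was 1.68, 0.46, 0.46 and 0.82 at WT day 7, on both sides of parity. At WT day 14 it was 5.49, 9.37, 7.48 and 1.88, and at KO day 14 it was 6.15, 3.16, 7.21 and 2.77, so Pappa was ahead in all 8 day 14 libraries. The sum of both pappalysins moved less, at 5.31 ± 0.51 CPM per kb at WT day 0, 6.76 ± 2.58 at WT day 7 and 2.84 ± 0.56 at WT day 14.

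Both stanniocalcins stood above day 0 at WT day 14, Stc1 already at WT day 7 and Stc2 only at WT day 14. Stc1 stood at 0.64, 1.02, 1.15 and 1.01 CPM at WT day 0, from 21 to 63 counts per library, and at 4.57, 4.73, 3.27 and 4.30 at WT day 7. At WT day 14 it was 5.41, 5.06, 4.77 and 3.80, so all later libraries were clear of day 0 and the later groups overlapped. Stc1 rose by 2.13 ± 0.24 over 7 days (edgeR adjusted p = 2.42e-07) and by 2.30 ± 0.24 over 14 days (edgeR adjusted p = 1.85e-07).
Stc2 stood at 4.43, 5.25, 4.602 and 4.36 CPM at WT day 0, 3.997, 3.46, 3.54 and 3.25 at WT day 7, and 7.87, 9.70, 9.05 and 13.5 at WT day 14. The day 7 libraries lay just below the lowest at day 0, and the day 14 libraries above all of them. Stc2 fell by 0.39 ± 0.17 over 7 days (edgeR adjusted p = 0.0467). That call was lost under 5 of the 9 other settings, with adjusted p from 0.0569 to 0.117, and on leaving out any of 7 of the 8 libraries, with adjusted p from 0.0536 to 0.109. Stc2 then rose by 1.49 ± 0.17 from day 7 to day 14 (edgeR adjusted p = 6.83e-06) and ended 1.10 ± 0.17 above day 0 (edgeR adjusted p = 1.55e-05).
Relative to the protease it inhibits, Stc2 was 2.915 to 4.333 times Pappa per kilobase in the WT day 0 libraries. In the WT day 7 libraries the ratio was 0.20 to 0.38, and in those of WT day 14 it was 0.74 to 1.10, without overlap between the 3 groups. The ratio of Stc1 to Pappa was 0.92 ± 0.33 at WT day 0 and 0.38 ± 0.043 at WT day 7.

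**Figure D3:**
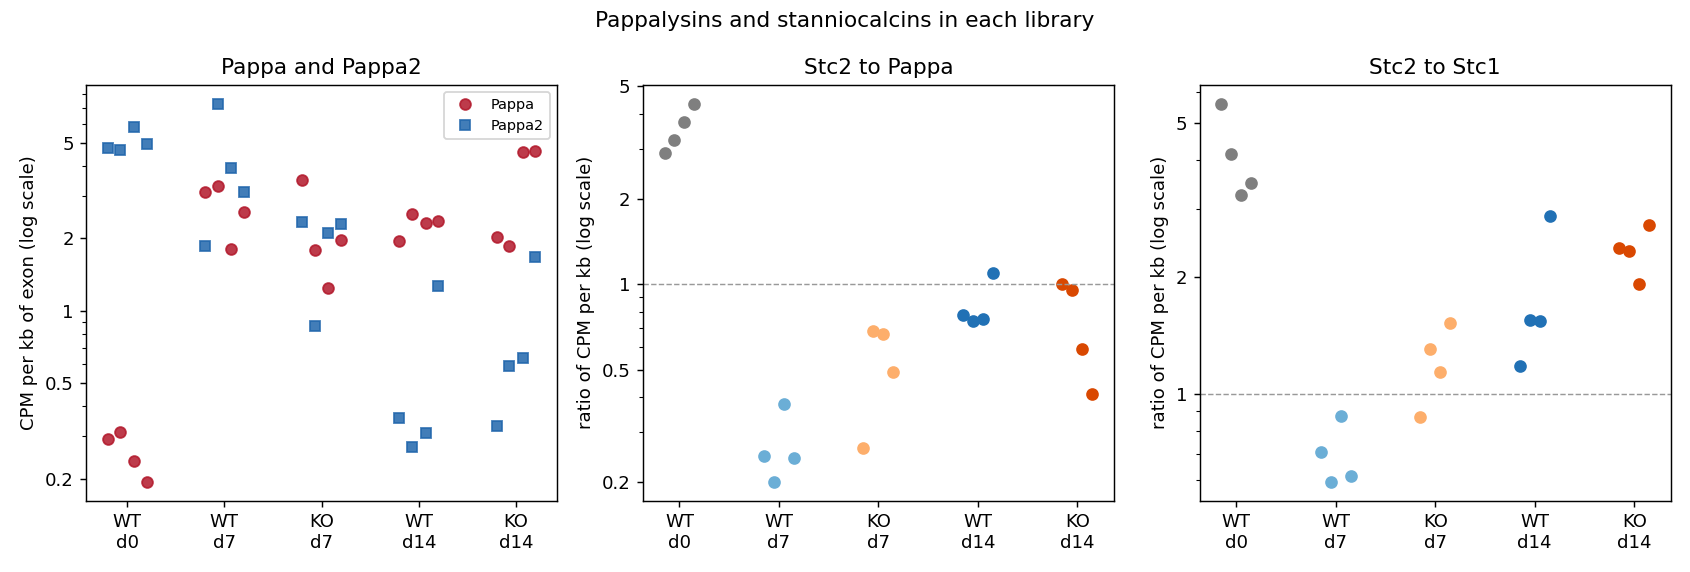
Left, CPM per kb of exon of Pappa and Pappa2 in each library; middle and right, ratios of Stc2 to Pappa and of Stc2 to Stc1 per library, with a dashed line at 1; all vertical axes are logarithmic. Pappa2 lies above Pappa in every day 0 library and below it in every day 14 library, and the ratio of Stc2 to Pappa is 0.20 to 0.38 at WT day 7 against 2.915 to 4.333 at WT day 0.

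Between the libraries labelled KO and WT at day 7, 2 of the 10 genes differed, Igfbp6 and Stc2, both higher in KO, where 14.8% of all genes were called, 9.39% higher and 5.42% lower. The libraries of 4 members did not overlap between labels, against 24.4% of all genes. Igfbp6 stood at 244, 376, 422 and 358 CPM in the KO day 7 libraries, all above the highest WT day 7 library at 214 CPM. The difference was 0.97 ± 0.20 on the log2 scale, or 1.96-fold (edgeR adjusted p = 0.00475). It was 0.87 to 1.11 with any 1 library left out, with adjusted p at most 0.0183. Skeletal muscle markers were also higher in KO at day 7, with 9 of 10 called, summed levels of 4489 to 11181 CPM against 180 to 1443, and none of the 10 at 0 throughout. With the muscle score as a covariate, Igfbp6 differed by 1.39 (edgeR adjusted p = 0.00381). The muscle marker sums of the labels did not overlap, so that value rests on extrapolation and cannot tell label and muscle content apart. Tenocyte markers were higher too, with 4 of 8 called and sums of 49225 to 59785 CPM against 25007 to 31668. One of the 4 is Scx, the gene whose name the ScxCreERT2 allele of these mice carries, at 14.6-fold higher in KO (edgeR adjusted p = 3.83e-07). Also higher were 3 of 6 paratenon and progenitor fibroblast markers (Cd248, Cd34 and Dpp4), with sums of 1407 to 1889 CPM against 1116 to 1664. Of 7 pericyte and smooth muscle markers 3 were higher and 1 lower, with sums of 1182 to 1249 CPM against 865 to 1354. Of 5 keratinocyte markers 3 were higher. Their sums were 3.68, 683, 12.9 and 3.985 CPM in KO day 7 replicates 1 to 4, against 2.55 to 9.14 in WT, so replicate 2 stood apart. Of 5 Schwann and nerve markers 1 was higher, and of 8 macrophage markers 1 was lower. The part of these lists in the result was not tested.
Stc2 stood at 4.78, 6.31, 4.27 and 4.99 CPM at KO day 7, above the 3.25 to 3.997 CPM of the WT day 7 libraries. Its difference of 0.51 ± 0.17 (edgeR adjusted p = 0.0434) was near the threshold. It was lost with upper-quartile scaling, limma-voom, the muscle score and a block for replicate number, and without any of 6 of the 8 libraries, with adjusted p of 0.0526 to 0.122.
Igfbp5 and Igfbp7 were the other members whose libraries did not overlap. Igfbp5 stood at 1070, 1058, 1369 and 1210 CPM at KO day 7, against at most 1015 in WT, a difference of 0.44 ± 0.19 that did not pass (edgeR adjusted p = 0.129). Igfbp7 stood at 619, 676, 732 and 622 CPM, against at most 603 in WT (0.25 ± 0.13, edgeR adjusted p = 0.21). Igfbp4, at 1508, 956, 1031 and 1142 CPM, differed by 0.38 ± 0.13 (edgeR adjusted p = 0.0657). It did pass with DESeq2 (adjusted p = 0.036) and without KO day 7 replicate 2 (0.47, edgeR adjusted p = 0.0386). Of the proteases, Pappa stood at 38.6, 19.7, 13.7 and 21.7 CPM and overlapped with WT (-0.35 ± 0.32, edgeR adjusted p = 0.498). Pappa2, at 24.1, 8.89, 21.6 and 23.6 CPM, lay within or below the range in WT and did not pass (-1.09 ± 0.54, edgeR adjusted p = 0.19; -2.01 with the muscle score). The differences of Igfbp2 (-0.63), Igfbp3 (-0.39) and Stc1 (-0.26) did not pass, and with the muscle score as a covariate those of Igfbp3 (0.13) and Stc1 (0.0416) had the opposite sign.

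At day 14, 0 of the 10 genes differed between KO and WT in edgeR's test, where 1.78% of all genes were called, 1.06% higher and 0.719% lower. The count of 337 genes became 1728 without WT day 14 replicate 4 and 88 in the day 14 libraries alone, and the members called remained 0 in both. WT day 14 replicate 4 had the highest tenocyte marker sum, at 84320 CPM against 32316 to 46842 in the other 3 libraries of its group. DESeq2 likewise called 0 members, and 1 member, Igfbp5, had an unadjusted p under 0.05. There were 0 members whose libraries did not overlap, against 6.13% of all genes. Igfbp5 stood at 1918, 1527, 2230 and 1199 CPM in KO and overlapped with the WT range of 795 to 1567 (0.57 ± 0.19, edgeR adjusted p = 0.136). Igfbp6, at 646, 530, 671 and 326 CPM in KO, lay on both sides of WT (0.26 ± 0.20, edgeR adjusted p = 0.552). Igfbp2 fell into pairs within KO, at 7.02 and 7.47 CPM in replicates 1 and 2 and at 2.05 and 1.504 in replicates 3 and 4 (-0.47 ± 0.43 against WT, edgeR adjusted p = 0.634). Pappa split the same libraries the other way, at 22.5 and 20.5 CPM in replicates 1 and 2 and at 50.5 and 51.1 in replicates 3 and 4 (0.52 ± 0.32, edgeR adjusted p = 0.446). Pappa2, at 3.41, 6.04, 6.54 and 17.3 CPM, differed by 0.57 ± 0.57 (edgeR adjusted p = 0.669), by -0.0768 without KO day 14 replicate 4 and by 1.38 without WT day 14 replicate 4.
The difference between the genotype effects at the 2 days was tested directly, and edgeR called 0 of the 10 genes and 0 of all genes (0% of 18918, either higher or lower). With 1 library left out it called at most 11 of all genes and 0 members. DESeq2 called 0 members and 190 of all genes, and at an unadjusted p under 0.05 edgeR had 1 member, Igfbp6. The interaction was -0.71 ± 0.29 for Igfbp6 (edgeR adjusted p = 0.389), -0.39 ± 0.23 for Stc2 (edgeR adjusted p = 0.572) and 1.66 ± 0.79 for Pappa2 (edgeR adjusted p = 0.468). For Pappa2 it was 2.47 without WT day 14 replicate 4, 1.01 without KO day 14 replicate 4 and 2.60 with the muscle score. For Pappa it was 0.86 ± 0.45 (edgeR adjusted p = 0.518). That Igfbp6 and Stc2 were called at day 7 and not at day 14 therefore does not show that the genotype effect differed between days.

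**Figure D4:**
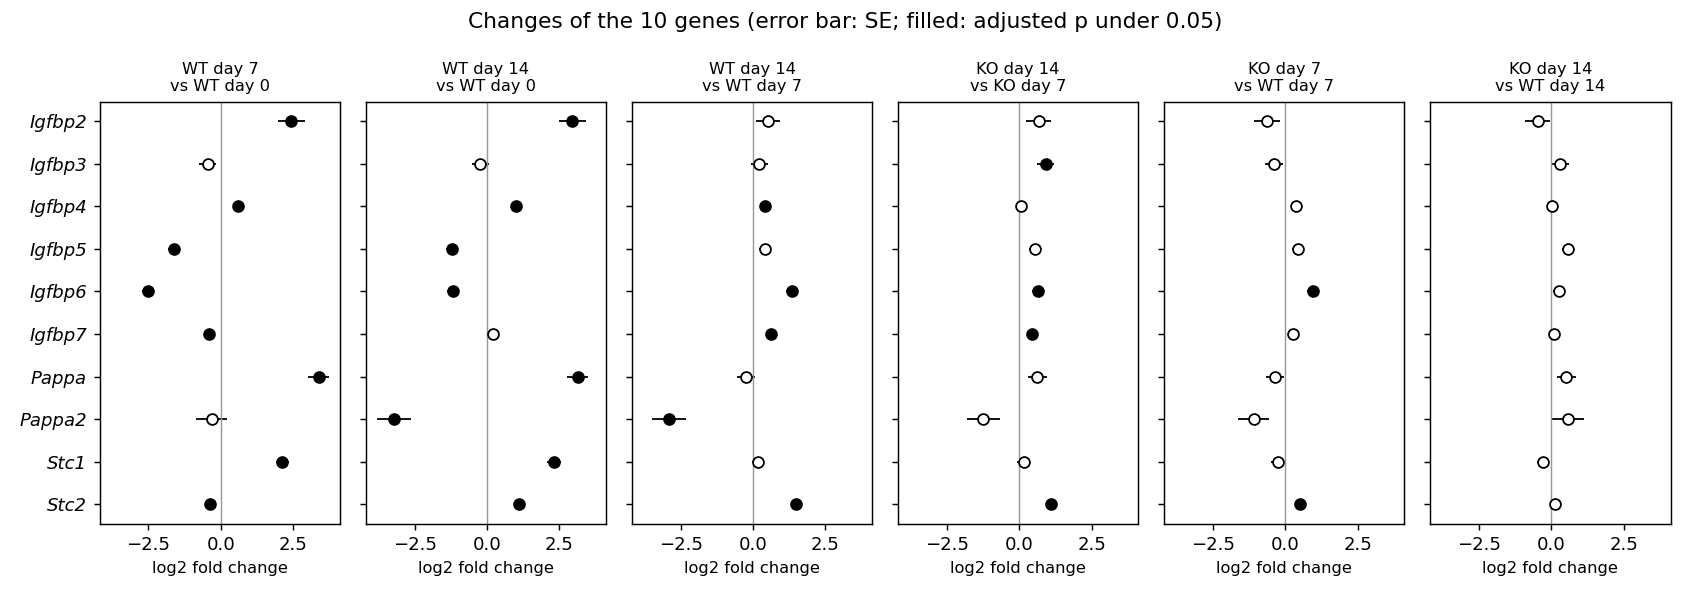
Log2 fold changes (points) with standard errors (bars) of the 10 genes in 6 comparisons; filled points have an adjusted p under 0.05. Pappa rises by 3.38 and Igfbp6 falls by 2.52 over 7 days in WT, Pappa2 falls by 3.21 over 14 days, and Igfbp6 (0.97) and Stc2 (0.51) are the filled points between KO and WT at day 7.

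From KO day 7 to KO day 14, 4 members rose and 0 fell, where 15.7% of all genes were called, 7.09% higher and 8.57% lower. The libraries of 1 member, Stc2, did not overlap, against 20.6% of all genes. Stc2 stood at 10.6, 9.16, 14.0 and 9.87 CPM at KO day 14, every library above every KO day 7 library, and rose by 1.10 ± 0.17 (edgeR adjusted p = 0.000322). The other 3 calls were close to the threshold. Igfbp6 rose by 0.63 ± 0.20 (edgeR adjusted p = 0.0397) and Igfbp7, at 986, 956, 978 and 721 CPM, by 0.46 ± 0.13 (edgeR adjusted p = 0.026). Igfbp3 rose by 0.92 ± 0.30 (edgeR adjusted p = 0.0475) with CPM of 199, 129, 324 and 76.4 at KO day 14 against 119, 76.2, 100 and 89.6 at KO day 7. Without the high library, KO day 14 replicate 3, its difference was 0.48 (edgeR adjusted p = 0.203). Each of these 3 calls was lost on leaving out any of 6 of the 8 libraries. The count of 4 fell to 1 when KO day 7 replicate 2 or 4, or KO day 14 replicate 1 or 3, was left out, to 2 without KO day 7 replicate 1 or KO day 14 replicate 2, and was 6 without KO day 14 replicate 4. Igfbp5, at 0.55 ± 0.19, did not pass (edgeR adjusted p = 0.0591), but did with DESeq2, upper-quartile scaling, the stricter filter, the replicate block and the muscle score, with adjusted p of 0.0254 to 0.0457. Pappa2 differed by -1.23 ± 0.56 and did not pass (edgeR adjusted p = 0.151), but did without KO day 14 replicate 4 (-1.88, edgeR adjusted p = 0.0373). Pappa, at 0.63 ± 0.32 (edgeR adjusted p = 0.201), passed without KO day 7 replicate 1 (0.98, edgeR adjusted p = 0.046).

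Against the same WT day 0 libraries, the KO libraries gave 8 calls at day 7, 4 in each direction, and 8 at day 14, 5 upwards and 3 downwards, where 57.7% and 50.3% of all genes were called. For day 7 that background was 29.4% higher and 28.3% lower, and for day 14 it was 25.4% and 25%. The libraries of 8 members did not overlap with day 0 at either day, against 56.1% and 46.6% of all genes. Genotype, tamoxifen and stimulus all differ here and cannot be told apart, and the comparisons share their control with those of WT, so the values are set side by side only. Igfbp6 fell by 1.55 at KO day 7 and by 0.91 at KO day 14, where WT had 2.52 and 1.18. Igfbp5 fell by 1.18 and by 0.63, where WT had 1.62 and 1.21. Igfbp4 rose by 0.95 and 1.04 in KO and by 0.58 and 1.01 in WT. Igfbp2 rose by 1.81 and 2.48 in KO and by 2.44 and 2.95 in WT. Pappa rose by 3.03 and 3.65 in KO and by 3.38 and 3.14 in WT. Stc1 rose by 1.86 and 2.01 in KO and by 2.13 and 2.30 in WT. Stc2 rose by 1.22 at KO day 14 (edgeR adjusted p = 5.87e-06) and by 1.10 at WT day 14. Pappa2 fell by 1.41 at KO day 7 (edgeR adjusted p = 0.0377), a call that was lost without a filter on low counts, with the muscle score (-0.75, edgeR adjusted p = 0.328) and without any 1 of the 8 libraries. At KO day 14 Pappa2 fell by 2.64 (edgeR adjusted p = 0.0013), and without KO day 14 replicate 4 the value was -3.29. Igfbp3 fell by 0.84 at KO day 7 (edgeR adjusted p = 0.0243), and its adjusted p was above the threshold without WT day 0 replicate 3 (0.0753), and also without KO day 7 replicate 2 (0.0639) or replicate 4 (0.0546).

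Other genes of the pathway were counted in the same comparisons. Of 8 IGF ligands, receptors and substrates, 3 rose and 5 fell over 7 days in WT, with a median of -0.49 on the log2 scale, where 64.1% of all genes were called. The ligand Igf1 went from 248 ± 12.2 to 665 ± 121 CPM (SD, n = 4) and rose by 1.43 ± 0.17 (edgeR adjusted p = 3.79e-07). Igf2r, the receptor that clears IGF-II, rose by 1.01 ± 0.09 (edgeR adjusted p = 1.65e-08). Igf2 rose by 1.47 ± 0.51 from 0.98 ± 0.18 CPM (edgeR adjusted p = 0.0174), a call lost with limma-voom (adjusted p = 0.0817) and without WT day 7 replicate 1 (edgeR adjusted p = 0.0662). Igfals, the partner of Igfbp3 in blood, fell by 2.68 ± 0.34 (edgeR adjusted p = 1.40e-06). The insulin receptor Insr fell by 0.62, the docking proteins Irs1 and Irs2 by 1.12 and 1.20, and Igf1r by 0.35. With the muscle score as a covariate Irs1 was no longer called (-0.85, edgeR adjusted p = 0.104), Igf2 stood at 3.86 and Igfals at -4.09.
Of 14 other tested enzymes reported to cut IGF binding proteins, 11 rose and 1 fell over 7 days in WT, with a median of 1.13 against 0.02 for all genes, of which 32.3% were called higher and 31.8% lower. Adam12, a membrane protease that cuts the products of Igfbp3 and Igfbp5, went from 2.64 ± 0.71 to 292 ± 32.5 CPM (6.79 ± 0.22 on the log2 scale, edgeR adjusted p = 6.91e-14). The metalloproteinases Mmp19 and Mmp14 rose by 2.57 and 2.06, the cathepsin Ctsd by 1.37 and Adam9 by 1.10. The serine protease Htra3 fell by 1.24 ± 0.18 (edgeR adjusted p = 5.32e-06). By day 14, against 28% of all genes higher and 26.2% lower, 11 of the 14 had risen and 0 had fallen, among them Adam12 (6.25), Mmp14 (2.62), Mmp2 (1.93) and Htra1 (1.57), the last a serine protease that cuts the product of Igfbp5. Between days 7 and 14, 5 of the 14 rose, including Htra1 (1.41) and Mmp2 (1.10), and 4 fell, where 30.4% of all genes were called. All 8 macrophage markers also rose over 7 days in WT. From WT day 7 to WT day 14, 7 of the 8 fell and 0 rose, where 14.3% of all genes were called lower. The part of these markers in the changes of the enzyme list was not tested.
Of 9 tested relatives with an IGFBP-type domain, 3 rose and 2 fell over 7 days in WT and 4 were not called, against 64.1% of all genes called. Wisp1, a secreted matricellular protein, rose by 4.88 ± 0.23 from 4.35 ± 0.76 to 128 ± 26.0 CPM (edgeR adjusted p = 8.26e-12). The transmembrane protein Crim1 fell by 1.73 ± 0.12 (edgeR adjusted p = 6.71e-10) and Kazald1 by 1.30 ± 0.16 (edgeR adjusted p = 6.50e-07).

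Between KO and WT at day 7, 2 of the 8 IGF ligands, receptors and substrates differed, where 14.8% of all genes were called. Igf1 was lower in KO, at 468, 385, 443 and 562 CPM against 842, 628, 573 and 616 in WT, with an overlap of 0 libraries (by 0.52 ± 0.16 on the log2 scale, edgeR adjusted p = 0.0389). That call was lost with the muscle score (-0.50, edgeR adjusted p = 0.21) and without any of 6 of the 8 libraries, with adjusted p of 0.0552 to 0.131. Igf2 was higher in KO, at 5.40, 3.25, 10.9 and 16.4 CPM against 1.86 to 4.08, with an overlap between labels (1.73 ± 0.48, edgeR adjusted p = 0.0236), and stood at 0.29 with the muscle score (edgeR adjusted p = 0.766). Without KO day 7 replicate 4, the highest library, it was 1.26 (edgeR adjusted p = 0.0966), and the call was also lost without KO day 7 replicate 3 or WT day 7 replicate 2 or 3. Of the 14 cutting enzymes 4 were higher and 2 lower in KO, led by Htra3 (0.86 ± 0.18, edgeR adjusted p = 0.00385) and Mmp14 (0.59 ± 0.12, edgeR adjusted p = 0.00461). At day 14, where 1.78% of all genes were called, 0 of the 8 ligands, receptors and substrates differed in edgeR's test. The Igf1 difference was -0.43 ± 0.16 (edgeR adjusted p = 0.184). Igf1 did pass without WT day 14 replicate 4 (-0.55, edgeR adjusted p = 0.0334). Of the 14 cutting enzymes 1, the lysosomal protease Ctsd, was lower in KO at day 14 (by 0.45 ± 0.09, edgeR adjusted p = 0.0129). Of the 9 tested relatives with an IGFBP-type domain 1, Crim1, was higher (0.48 ± 0.12, edgeR adjusted p = 0.045). Both calls were lost in the fit to the day 14 libraries alone, with edgeR adjusted p of 0.149 and 0.276. That of Ctsd was lost without WT day 14 replicate 3 (edgeR adjusted p = 0.053), and that of Crim1 without any of 6 libraries, with adjusted p of 0.0804 to 0.142.

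Some genes other than the members followed single members closely over the 20 libraries, by Pearson's r of log2 CPM among 11166 genes with a mean of at least 5 CPM. The values describe likeness only, since libraries of a group share their treatment and the difference between day 0 and later groups dominates them. For Igfbp6 the nearest were Radil (r = 0.98), Scara5 (r = 0.98), which encodes a scavenger receptor, and Fam124a (r = 0.98). Taken as deviations from the group means, which leave out that difference, these values were 0.85, 0.91 and 0.89. For Igfbp5 they were the transcription factor gene Dmrt2 (r = 0.97), the Wnt pathway gene Axin2 (r = 0.96) and the matrix gene Tnxb (r = 0.96), and within groups 0.83, 0.83 and 0.83. For Pappa, close genes included Chsy1 (r = 0.96), which encodes a chondroitin synthase, and Wisp1 (r = 0.96), and within groups these values were 0.88 and 0.76. For Stc2 the nearest was Col8a2, a collagen gene (r = 0.95, within groups 0.73). Igfbp3, the member with few calls, had the loosest neighbour, Tomm20 (r = 0.84, within groups 0.79).

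The authors' deposited table of edgeR comparisons gives fold changes for the 10 genes in 6 of these comparisons. All 60 values had the same sign and the same side of the threshold as the ones here. The largest absolute difference between a value of the authors' deposited table and the one here was 0.024 on the log2 scale.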

How the data were processed

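RNA of mouse plantaris tendon was sequenced in 20 libraries, 4 in each of 5 groups. The authors deposited raw counts per gene for 24885 genes. FastQC, STAR and edgeR and the build mm10 are named in the submitters' processing notes; the sources used here do not give the counter, annotation, strand setting or versions. The authors also deposited log2 fold changes and p-values of their own comparisons, per the file headers, which were only set beside the values here.

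Groups follow the genotype, tamoxifen and title labels. Counts were fitted with edgeR 4.0.16 (R 4.3.3; filterByExpr, TMM, robust quasi-likelihood F test) over all 20 libraries with 1 mean per group. Benjamini-Hochberg adjustment ran over the 18918 genes tested, with a threshold of 0.05, and the design was tested on simulated data. SEs are the log2 change divided by the root of F. Levels between genes are CPM per kilobase of exon union (GENCODE vM21, GRCm38). Other settings tried were upper-quartile or RLE scaling, fitting without a filter, a filter of at least 1 CPM in 4 libraries, DESeq2 1.42.0, limma-voom (limma 3.58.1), the compared groups alone, a replicate block, a muscle marker score and leaving out each library.

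The members, gene lists and comparisons were chosen with earlier results of these data known. All members were counted in every comparison and named in each in which they passed. Other pathway genes were named from up to 6 per list by smallest p, and Igf1r as the targeted gene. Igf2 was named outside this rule for WT day 7 against WT day 0. For likeness, the 3 genes of highest r were taken per member, and shown for 5 members, a choice made after the values were seen. One gene of these is not reported here. Samples with the same replicate number deviated together only slightly, which does not exclude a pairing. No 2 libraries agreed within sampling noise. Depth was 32254411 to 63522834 counts per library, and the lowest member count in a library was 20.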

Additional observations from a re-analysis of the deposited data

Results flagged for a closer look

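In 6 of 50 sets of 4 libraries (10 genes in 5 groups), 1 library lay far from the other 3 of its group by Dixon's criterion, which chance alone meets in about 1 in 20 such sets. Igfbp2 was high in WT day 7 replicate 1, at 7.06 CPM. Igfbp3 was high in WT day 0 replicate 3, at 218 CPM. Igfbp4 was high in WT day 14 replicate 4, at 1471 CPM. Igfbp7 was low in KO day 14 replicate 4, at 721 CPM. Pappa2 was low in KO day 7 replicate 2, at 8.89 CPM, the library that also held keratinocyte markers at 683 CPM. Pappa2 was high in WT day 14 replicate 4, at 12.99 CPM.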

How the results depend on the processing

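The 74 member values compared here are those that passed or are printed, of 90 in all. RLE scaling changed the call or sign of 0 of them. Between KO and WT at day 7, the 2 calls became 1 with upper-quartile scaling, limma-voom, the replicate block and the muscle score, and 3 with DESeq2; leaving out 1 library gave 1 to 2. From KO day 7 to KO day 14, the 4 calls became 2 without a filter, with limma-voom and in the compared groups alone; leaving out 1 library gave 1 to 6. With the muscle score as a covariate, the uncalled differences of Pappa2 between WT day 7 and WT day 0 (1.26), of Igfbp3 between KO and WT at day 7 (0.13) and of Stc1 in the same comparison (0.0416) had the opposite sign. Leaving out 1 library, Pappa2 at day 14 between KO and WT ranged from -0.0768 to 1.38. The cause was not tested. The other counts stayed within 1.5 times: leaving out 1 library gave 6 to 8 calls for WT day 7 against WT day 0, 8 to 9 for WT day 14 against WT day 0 and 4 to 6 for WT day 14 against WT day 7. For KO day 14 against WT day 0, the 8 calls became 9 with the replicate block, DESeq2, limma-voom and upper-quartile scaling, and without WT day 0 replicate 2 or KO day 14 replicate 4.

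Over all genes, the 337 calls between KO and WT at day 14 became 759 with DESeq2 and 88 in the day 14 libraries alone. They became 1728 without WT day 14 replicate 4, and 161 to 206 on leaving out any other library of the comparison except KO day 14 replicate 4 (425). Between KO and WT at day 7 the 2802 calls became 899 with the muscle score, 1484 without WT day 7 replicate 2 and 1492 without KO day 7 replicate 4. With the muscle score the 12133 calls of WT day 7 against WT day 0 became 5835, and the 5745 of WT day 14 against WT day 7 became 2827. The 2962 of KO day 14 against KO day 7 became 1937 without KO day 7 replicate 2 and 1717 without KO day 14 replicate 1. With upper-quartile scaling no median over all genes moved by over 0.1.

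Replicate numbers gave little sign of a pairing, but do not exclude one. The correlation of deviations in 40 same-numbered pairs ran from -0.165 to 0.272, with a median of 0.047 against -0.009 in other pairs. Of the 40, 14 were over 0.1, and 7 of 20 libraries correlated best with their own number. The 2802 calls over all genes between KO and WT at day 7 became 3141 with the replicate block. With the replicate block, 4 of the 74 member values changed their call: Stc2 in both day 7 comparisons and Igfbp3 (KO day 14 against KO day 7, 0.84) were lost, and Igfbp5 (0.54) was gained in the last. Low counts limit Igfbp2 and Stc1 at day 0, with as few as 20 and 21 counts.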
